A study of Mus musculus with 38 samples.

Results

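MERVL is an endogenous retrovirus of the mouse genome. Its internal part, which carries the viral genes, is annotated as MERVL-int, and MT2_Mm is the long terminal repeat (LTR) that flanks it on both sides and drives its transcription. The other MT2 families (MT2A, MT2B, MT2B1, MT2B2 and MT2C_Mm) are related LTRs, and MERVL_2A-int is a related internal sequence. MERVL and MT2_Mm are known for their burst of transcription at the 2-cell stage of the embryo, when LTRs of MT2_Mm act as promoters of nearby genes, and for their silence in most embryonic stem cells. Silent transposons often lie at the nuclear periphery, where the inner nuclear membrane meets the lamina.

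Members were the copies in the deposited transposon tables whose superfamily was ERVL and whose family name began with MERVL or MT2. The rule found 41671 copies of 3793386 (1.10%), in 8 of 1241 families. MT2B held 9544 copies, MT2A 9458, MT2B1 8105, MERVL_2A-int 4250, MT2B2 3652, MT2_Mm 2643, MERVL-int 2039 and MT2C_Mm 1980.

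The study mapped contacts of the genome with the nuclear periphery by CUT&RUN, in which an antibody guides a nuclease to cut and release the DNA near its target. LAP2B, which sits in the inner nuclear membrane and binds lamins, was mapped in 8 groups of 3 libraries each: WT cells, LBRKO cells that lack the lamin B receptor, TKO cells that lack all lamins, and QKO cells that lack both, each as naive mouse embryonic stem cells and as epiblast-like cells (EpiLC). LMNB1 (lamin B1) and IGG, the negative control, were mapped in WT cells only, again with 3 libraries per stage. Each library started from 200000 cells. Naive cells grew in 2i and LIF medium, and EpiLCs were made from them by 48 hours with FGF and activin A. In WT EpiLCs the paper found LAP2B signal both inside and outside the domains that contact lamin B1. It therefore did not use LAP2B in EpiLCs as a stand-in for such domains. LAP2B values in EpiLCs, and differences between stages, are thus no plain measure of contact with the periphery.

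The cell lines limit the comparisons. WT and TKO lines came from littermates, LBRKO clones were edited from the WT line and the QKO line was a single clone edited from the TKO line, so clone and genotype cannot be told apart. TKO cells carry an extra copy of chromosome 8, and some of them have lost the Y. Some WT cells have lost the Y, in a part of them together with a gain of both chromosomes 6 and 8. The 8 member families were therefore also computed from copies on autosomes other than 6 and 8, while all other families kept all their copies. Those values stand beside the results in naive cells and, elsewhere, where a call was lost. Nothing in the labels says that libraries came from separate cultures, so p-values measure only the spread between libraries, which may be technical.

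Values are the authors' spike-in scaled signal. They behave as sums over the 1 kb bins that a copy touches, which was inferred from the values because the joining of bins to copies is not stated. They are not divided by length, and copies that touch the same bins have the same value. Copies next to each other in the deposited order with equal reads in all 36 libraries were taken to share a bin. This held for 62.0% of member copies, against 55.0% of all copies. A copy that shares only part of its bins with another is missed by this rule, and neighbours without any reads are counted as sharing. A family's level is the mean over its copies. The relative scale gives a family's level as a multiple of the median family of the same library, so that 1 is a typical family, and on the spike-in scale values were used as deposited. The deposited values were whole multiples of 1 read. Over the 36 libraries the copies summed to between 37407387 and 131279154 reads, with a median of 8 to 29 reads per copy. Replicate libraries differed by more than sampling noise in all 36 pairs (chi-square per degree of freedom 3.35 to 12.3), so each library was counted as its own sample. The methods kept primary alignments and name uniquely mapped reads for some transposon measurements, and which reads entered these tables was not settled here. In either case values of single, near-identical MT2_Mm and MERVL copies are uncertain, since their reads may be assigned to the wrong copy or left out.

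The deposited tables name copies without positions. Copies were located by matching their read counts in every library with genes that lie inside a single bin. This matched 117 member copies. Every copy between the first and last match of a chromosome in the deposited order was then given that chromosome. Chromosomes of 41191 member copies (98.8%) thus rest mostly on that order, in which 99.9% of steps between matches rose along a chromosome. MT2_Mm copies were then placed by sequence along each chromosome of GRCm39 (mm39, the build of the files), which placed 1551 of 2643. With each known bin held out, 19 of 29 known copies were placed, and all of these 19 in the right bin. The following 3 copies are shown because they lie in bins matched by read counts and show the forms of the LTR. They are the long form, the long form without GATTGAAT on the strand shown, and a short form. They were chosen after their values were seen. The first 300 bases of each are given from 5′ to 3′ along the LTR, as read from GRCm39. Capitals mark GATTGAAT and TATAAG on the strand shown, the latter a TATA-like box. MT2_Mm_dup984 holds GATTGAAT on the opposite strand (attcaatc as printed), which is not marked.
MT2_Mm_dup509: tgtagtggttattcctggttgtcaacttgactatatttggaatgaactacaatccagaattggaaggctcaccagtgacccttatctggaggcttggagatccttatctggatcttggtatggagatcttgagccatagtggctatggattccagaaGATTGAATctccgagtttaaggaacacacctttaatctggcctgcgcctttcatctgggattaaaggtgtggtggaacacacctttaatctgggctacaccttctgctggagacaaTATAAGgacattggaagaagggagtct
MT2_Mm_dup984: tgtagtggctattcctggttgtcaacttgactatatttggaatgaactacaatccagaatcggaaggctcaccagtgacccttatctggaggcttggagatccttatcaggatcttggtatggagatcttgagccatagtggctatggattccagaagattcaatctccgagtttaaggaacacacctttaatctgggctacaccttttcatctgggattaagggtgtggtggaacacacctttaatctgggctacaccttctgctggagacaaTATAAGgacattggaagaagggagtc
MT2_Mm_dup2597: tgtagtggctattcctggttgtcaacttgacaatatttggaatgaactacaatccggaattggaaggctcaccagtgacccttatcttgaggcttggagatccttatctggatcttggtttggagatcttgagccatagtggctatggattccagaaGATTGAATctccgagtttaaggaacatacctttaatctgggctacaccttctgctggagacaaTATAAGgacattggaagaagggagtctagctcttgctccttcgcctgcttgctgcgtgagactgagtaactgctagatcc

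MT2_Mm_dup509 is 488 bases long, and the bases shown lie at chr3:133137538-133137837 on the minus strand. MT2_Mm_dup984 is 489 bases long and is shown from chr7:11037220-11037519, also on the minus strand. MT2_Mm_dup2597, of 435 bases, is shown from chr19:9885322-9885621 on the plus strand. The annotation places all 3 in exons of predicted genes (Gm55209, Gm56245 and Gm54998), which follows from the matching, since it used genes that fit in a single bin. TATAAG began at base 274 in MT2_Mm_dup509 and at base 221 in MT2_Mm_dup2597, while GATTGAAT began at base 158 in both. Of 17 full copies matched in this way, 12 were 486 to 519 bases long and 5 were 433 to 435 bases long.

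The letters were shared by most placed copies. Among the 1353 placed MT2_Mm copies of at least 400 bases that lie outside chromosome 18, which was not read, the first 300 bases held GATTGAAT on either strand in 92.3% (1249 copies) and TATAAG in 97.3% (1316). Of 32851 RefSeq promoters of 300 bases (GRCm38.p6), 0.496% held GATTGAAT and 7.43% held TATAAG. A match describes the letters and is not a binding site. By alignment to a single MT2_Mm copy, the other 28 MT2_Mm copies in matched bins all aligned, with a median identity of 93.4%. Bins of MT2C_Mm had 85.5% (5 of 6 aligned), while none of 15 MT2A, 29 MT2B or 14 MT2B1 bins aligned. Of MT2B2 bins 1 of 7 aligned (79.2%), of MERVL_2A-int bins 1 of 5 (88.5%) and of MERVL-int bins 8 of 12 (median 91.3%). An alignment counted if it overlapped the bin anywhere. Hits in bins of the internal parts thus need not lie in the internal parts, and are no identity of those parts to the LTR.

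MERVL-int had the highest level of the 8 families in WT cells and MT2B the lowest. Relative LAP2B levels of MERVL-int were 2.29, 2.10 and 2.38 in naive WT libraries (2.26 ± 0.143, SD, n = 3), which ranked 17th of the 1241 families. MT2_Mm had 1.33, 1.27 and 1.36 (1.32 ± 0.0495), ranked 160th. MT2B had 0.833, 0.786 and 0.847 (0.822 ± 0.0321), ranked 1121st. The mean levels of MERVL_2A-int, MT2C_Mm, MT2A, MT2B1 and MT2B2 were 1.38, 1.12, 0.968, 0.939 and 0.899. MERVL_2A-int and MT2_Mm overlapped in their libraries, and no other neighbours in this order did. Since the values behave as sums over bins, a longer element has a higher level, and the order is no order of contact per base.

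The 4 highest families were the same, in the same order of means, in LMNB1 and in the negative control. In naive WT cells the relative IGG level was 2.51 ± 0.00758 (SD, n = 3) for MERVL-int and 1.38 ± 0.0272 for MT2_Mm, and the LMNB1 level was 1.98 ± 0.184 and 1.22 ± 0.0584. Every family but MT2B1 ranked lower with LAP2B and LMNB1 than with IGG, MT2B and MT2B2 by the most ranks. MT2_Mm, for example, ranked 96th in IGG, 160th in LAP2B and 231st in LMNB1, and MT2B1 819th, 806th and 753rd. MT2B stood at 1.02 ± 0.0269 in IGG (512th) against 0.822 in LAP2B and 0.788 ± 0.0411 in LMNB1 (1142nd). MT2B2 stood at 1.09 ± 0.0176 in IGG (349th), 0.899 ± 0.0330 in LAP2B (937th) and 0.861 ± 0.0498 in LMNB1 (1021st). The tables of the antibodies were normalized separately, so these levels are set side by side without a test.

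A modified z score that the authors deposited for LAP2B in naive WT cells, which sets each copy against the median of all copies, gave a similar picture. A score above 2 was found for 29.4% of MERVL-int, 14.96% of MERVL_2A-int and 10.3% of MT2_Mm copies, against 6.39% of all copies. For MT2B the share was 2.72%, and for MT2B2 3.75%. The score rests on the same sums over bins, so element length enters it too.

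**Figure D1:**
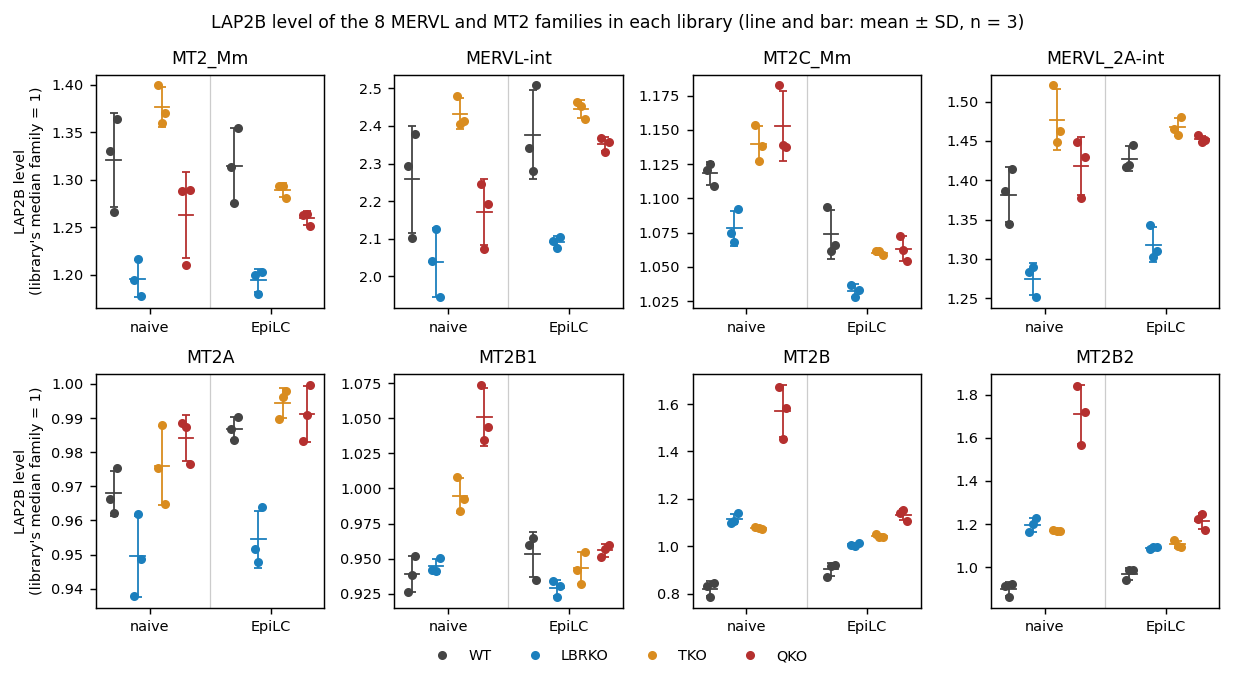
Relative LAP2B level (library's median family = 1, linear axis that differs between panels) of each of the 8 families in every library, by stage and genotype, with line and bar for mean ± SD (n = 3). MT2B and MT2B2 are lowest in naive WT and highest in naive QKO libraries, while MT2_Mm and MERVL-int have their lowest means in LBRKO.

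In naive QKO cells, MT2B and MT2B2 rose against the typical family, and the other 6 families moved by at most 0.15 on the log2 scale. MT2B levels were 1.67, 1.45 and 1.59 in naive QKO libraries against 0.833, 0.786 and 0.847 in WT. The lowest QKO library lay far above the highest WT library. The change was 0.86 ± 0.035 on the log2 scale (SE, 1.81-fold, adjusted p = 2.62e-13, limma with Benjamini-Hochberg adjustment over 1241 families), the 27th largest rise. MT2B2 had 1.84, 1.57 and 1.72 in QKO against 0.914, 0.862 and 0.923 in WT, a change of 0.85 (1.81-fold, adjusted p = 6.29e-13), ranked 28th.

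Among those 6, the LTR family MT2B1 rose by 0.15 (adjusted p = 1.01e-07), with 1.07, 1.03 and 1.04 in QKO and 0.926, 0.939 and 0.952 in WT, and the groups did not overlap. MT2C_Mm rose by 0.04 (adjusted p = 0.0273), from 1.11 to 1.12 in WT to 1.14 to 1.18 in QKO. MT2_Mm fell by 0.06 (adjusted p = 0.0426), with overlapping libraries (1.29, 1.21 and 1.29 in QKO). The retroviral internal part MERVL-int (-0.05, adjusted p = 0.227), MERVL_2A-int (0.04, 0.138) and MT2A (0.02, 0.131) did not pass the test. In all, 5 of 8 families passed in naive QKO cells, against 79.2% of all families, so the count is below the background. The rises of MT2B1 and MT2C_Mm turn to -0.03 and -0.14 when libraries are divided by their mean family, a scaling that moves the median of all families by -0.18; MT2B and MT2B2 stay at 0.68 and 0.67. From copies on autosomes other than 6 and 8, MT2B changed by 0.89, MT2B2 by 0.81 and MT2_Mm by -0.04 (adjusted p = 0.201).

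LBRKO alone gave rises and falls. In naive LBRKO libraries MT2B stood at 1.10, 1.11 and 1.14, all above WT (0.40 ± 0.035, 1.32-fold, adjusted p = 8.86e-09), and MT2B2 at 1.17, 1.20 and 1.23 (0.38 ± 0.039, 1.30-fold, adjusted p = 8.61e-08). The MERVL families and their LTR fell. MT2_Mm had 1.19, 1.22 and 1.18, each below every WT library (-0.13 ± 0.026, adjusted p = 0.000186), and MERVL_2A-int had 1.28, 1.29 and 1.25 against 1.39, 1.35 and 1.41 (-0.11 ± 0.022, adjusted p = 0.000218). MERVL-int had 2.04, 2.13 and 1.94, overlapping WT (-0.14 ± 0.040, adjusted p = 0.00435), and MT2C_Mm fell by 0.05 (adjusted p = 0.0114). MT2A (-0.03, adjusted p = 0.0907) and MT2B1 (0.01, 0.67) did not pass. Thus 6 of 8 passed, against 71.6% of all families. Divided by the mean family, which moves the median of all families by 0.14, the 4 families that fell stood between 0.01 and 0.10 and did not pass, so their falls depended on the scaling. With the median in place of the mean over copies, MT2_Mm changed by -0.07 (adjusted p = 0.365). From autosomes other than 6 and 8, MT2_Mm changed by -0.12 and MT2B by 0.38.

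In naive TKO cells MT2B and MT2B2 rose as well. Their relative IGG levels in naive WT cells were 1.02 and 1.09, above their WT LAP2B levels. IGG was not mapped in mutants, so a gain over background was not tested for any of the rises. MT2B stood at 1.08, 1.08 and 1.07, all above WT (0.35, adjusted p = 6.58e-07), and MT2B2 at 1.17 in each of the 3 libraries (0.34, adjusted p = 1.65e-06). MERVL-int rose by 0.10 (adjusted p = 0.0359), MERVL_2A-int by 0.09 (0.00194) and MT2B1 by 0.08 (0.000718). In all, 5 of 8 passed against 53.1% of all families, and MT2_Mm (0.06, adjusted p = 0.0751), MT2C_Mm (0.03) and MT2A (0.01) did not. Division by the mean family moves the median of all families by -0.27 and takes MT2B to 0.08 (adjusted p = 0.366), MT2B2 to 0.07 (0.430) and MERVL-int, MERVL_2A-int and MT2B1 to between -0.18 and -0.20. On that scaling 6 of 8 passed, all of them lower, against 66.2% of all families called lower, so the rises in TKO depended on the scaling. From copies on autosomes other than 6 and 8, MT2B changed by 0.35, MT2B2 by 0.32 and MERVL-int by 0.10 (adjusted p = 0.0513, so its call was lost).

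**Figure D2:**
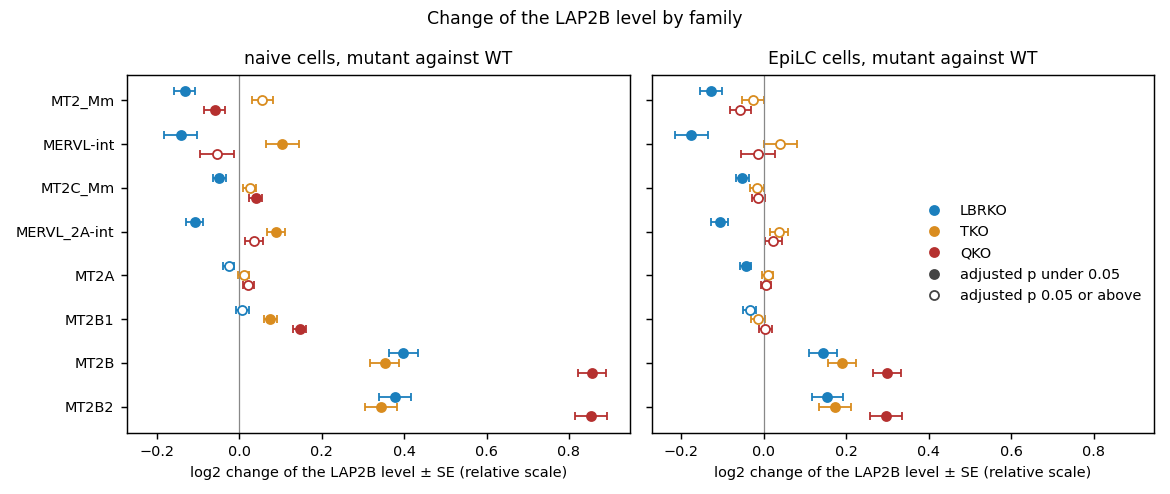
Change of the LAP2B level on the relative scale (log2, ± SE) of each family in naive cells (left) and EpiLCs (right) for LBRKO, TKO and QKO against WT, with filled dots for adjusted p under 0.05. MT2B and MT2B2 lie right of 0 in all 6 comparisons, farthest in naive QKO (0.86 and 0.85).

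In EpiLCs, where the paper did not rely on LAP2B as a marker of lamina contact, the rises of MT2B and MT2B2 were smaller. In QKO EpiLCs MT2B had 1.14, 1.15 and 1.11 against 0.872, 0.917 and 0.919 in WT (0.30, adjusted p = 2.52e-06), and MT2B2 had 1.22, 1.25 and 1.18 against 0.939, 0.986 and 0.986 (0.30, adjusted p = 6.36e-06). No other family passed, so 2 of 8 did, against 47.5% of all families. In TKO EpiLCs MT2B changed by 0.19 (adjusted p = 0.000445) and MT2B2 by 0.17 (0.00224), again 2 of 8 against 31.9%. After division by the mean family 0 of 8 passed, against 0.403% of all families, so that count says nothing about the members. The mean LAP2B levels of MT2B and MT2B2 in TKO EpiLCs were 1.04 and 1.11. Their IGG levels in WT EpiLCs, on a table scaled separately, were also 1.04 and 1.11. LBRKO EpiLCs had 7 of 8 against 47.1%: MT2B (0.14, adjusted p = 0.00225) and MT2B2 (0.15, 0.00319) rose, and 5 families fell.

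The families that fell included those that fell in naive LBRKO cells. MT2_Mm had 1.20, 1.18 and 1.20, below WT at 1.31, 1.28 and 1.35 (-0.13, adjusted p = 0.000589). MERVL-int had 2.09, 2.08 and 2.10 against 2.34, 2.28 and 2.51 and no longer overlapped WT (-0.18, adjusted p = 0.00162). MERVL_2A-int changed by -0.11 (adjusted p = 0.000568), MT2C_Mm by -0.05 (0.0125), MT2A by -0.04 (0.0101) and MT2B1 by -0.03 (0.0944). Divided by the mean family, which moves the median of all families by 0.23, the 5 families that fell turn to between 0.07 and 0.19, so here too the falls depended on the scaling. The same division left MT2B at 0.37 in LBRKO EpiLCs and at 0.55 in naive LBRKO cells.

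The stage difference itself was tested as the mutant effect in EpiLCs minus that in naive cells. For QKO it was -0.56 for MT2B (adjusted p = 2.01e-07), -0.56 for MT2B2 (2.98e-07) and -0.14 for MT2B1 (4.51e-05; 0.07 when divided by the mean family), and 3 of 8 families passed against 52.9% of all. For LBRKO it was -0.25 for MT2B (adjusted p = 0.00148) and -0.22 for MT2B2 (0.00699), 2 of 8 against 25.9%, and 0 of 8 passed after division by the mean family or with the median over copies, where 0% and 0.403% of all families did. For TKO, 3 of 8 passed against 18.1%, with -0.16 for MT2B (adjusted p = 0.0284), -0.17 for MT2B2 (0.0358) and -0.09 for MT2B1 (0.0113), and division by the mean family took MT2B to 0.0016 and MT2B1 to 0.08. From autosomes other than 6 and 8, the TKO difference of MT2B2 was -0.15 and did not pass (adjusted p = 0.0581). Both stages were compared with their own WT libraries. The differences were shared with other elements: for QKO all 15 Alu families (median -0.58), all 5 B2 families (-0.60) and 16 of 30 MaLR families (lowest -0.70) passed in the same direction, and for LBRKO all 15 Alu (-0.29) and 5 B2 families (-0.31).

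In WT cells 2 of 8 families passed for LAP2B between the stages, against 26.8% of all families. MT2B rose from naive cells to EpiLCs by 0.12 (adjusted p = 0.0172) and MT2C_Mm fell by 0.05 (adjusted p = 0.0207), while MT2B2 did not pass (0.10, adjusted p = 0.0673). Divided by the mean family, which moves the median of all families by -0.34, MT2B turns to -0.21, and without EpiLC WT replicate 2 or 3 or naive WT replicate 2 neither family passed. On that scaling 8 of 8 families passed for LAP2B and 7 of 8 for LMNB1, all lower, against 94.5% and 93.5% of all families called lower. Relative to the median family, 0 of 8 passed for LMNB1 in limma, 0 had an unadjusted p under 0.05 and edgeR called 0, against a background of 0.886%. For IGG the counts were likewise 0, 0 and 0, against 0.161%.

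On the spike-in scale, the LAP2B signal over all 8 families fell in naive TKO, naive QKO and QKO EpiLCs. Over MT2_Mm it was 0.783, 1.17 and 0.875 in naive WT libraries, 0.360, 0.569 and 0.407 in naive TKO and 0.239, 0.199 and 0.236 in naive QKO, with no overlap between WT and either mutant. Changes over the 8 families had a median of -0.98 in naive TKO, -1.71 in naive QKO and -1.04 in QKO EpiLCs, and all 8 passed each time. Of all families 99.3%, 99.8% and 99.8% passed, so the loss was shared by almost every family. In naive QKO, MT2B changed by -0.94 and MT2B2 by -0.95 (fold 0.522 and 0.516), but MT2_Mm by -1.84 and MERVL-int by -1.91 (fold 0.280 and 0.266). This order restates the relative result, since the scales differ by a factor per library. It was not particular to MT2B and MT2B2: the families of Alu and B2 short interspersed elements had medians of -0.88 and -0.83. For comparison, IGG over MT2_Mm was 0.180, 0.118 and 0.185 in naive WT libraries, on a table scaled separately.

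The other spike-in comparisons called 0 of the 8 families. In naive LBRKO (background 9.91%), LBRKO EpiLCs (0.0806%) and between stages in WT for LAP2B (0.161%), LMNB1 (0.322%) and IGG (0%), none had an unadjusted p under 0.05 in limma. In TKO EpiLCs (11.8%) 4 of 8 had an unadjusted p under 0.05 and none passed after adjustment, with changes of -0.47 to -0.24 and overlapping libraries. Without TKO replicate 1, whose signal over MT2_Mm was 0.808 against 0.557 and 0.461 in the other TKO EpiLC libraries, all 8 passed, and without WT replicate 2, 6 did. The edgeR test was fitted on the relative scale only.

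Families that were set beside the members moved on the relative scale in their own ways. In naive QKO cells all 15 families of Alu elements, which in the mouse are the B1 short interspersed elements, rose (median 0.91), as did all 5 B2 families (median 0.96). The MaLR families ORR1 and MT, distant LTR relatives of MT2, had 22 rises and 6 falls among 30 families (median 0.08, highest 1.09), and the 8 members had 4 rises and 1 fall (median 0.04). Of the 108 other ERVL families, the superfamily of the members, 23 rose and 61 fell (median -0.10). L1MdTf, young long interspersed elements, fell in 3 of 3 families (median -0.57), and IAP, another retrovirus family, in 15 of 25 (median -0.24). In naive LBRKO cells 25 of 25 IAP families fell (median -0.43), and Alu families rose in 15 of 15 (median 0.49).

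MT2B and MT2B2 also differed from the rest in what shared their bins. By equal reads, an Alu copy lay in the same 1 kb bin as 69.8% of MT2B copies (6666) and 60.7% of MT2B2 copies (2216). In the other 6 families the share was 3.14% to 11.8%. Only 13.5% of MT2B and 23.9% of MT2B2 copies were alone in their bin, against 67.8% of MT2_Mm. The reads of a shared bin cannot be divided between its elements. A copy that shares only part of its bins with another counts here as not sharing with it.

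Copies that shared a bin with an Alu copy had a median change above 0 in each of the 8 families in naive cells of all 3 mutants. In naive QKO, on a scale where each library was divided by its median copy, MT2B copies with an Alu copy in the bin had a median change of 1.00, copies alone -0.01 and copies that shared the bin with other elements -0.12. For MT2B2 the medians were 0.93, -0.24 and 0.13. The split was alike for MT2_Mm, with 0.37 beside an Alu copy, -0.27 alone and -0.17 with other elements, and for MERVL-int, with 0.26, -0.17 and -0.20. In naive LBRKO the medians beside an Alu copy were 0.21 to 0.63 over the 8 families, with MT2B at 0.63, and MT2B copies alone had 0.06. These are descriptions, because copies in a bin and near-identical copies are not independent.

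**Figure D3:**
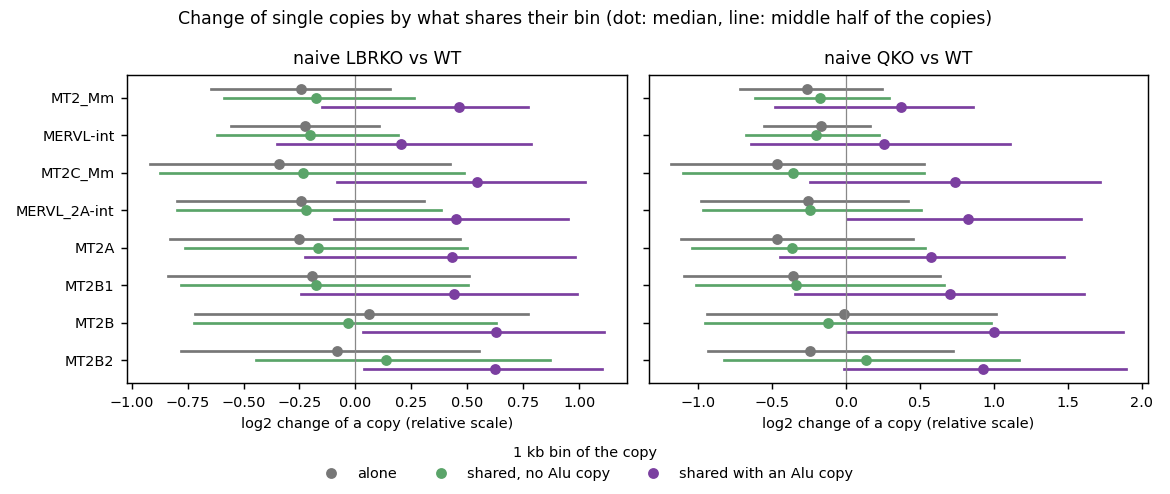
Change of single copies on the relative scale (log2, dot for the median, line from the lower to the upper quartile) in naive LBRKO (left) and naive QKO (right) by family and by what shares the copy's 1 kb bin. In each family the copies with an Alu copy in the bin lie to the right of the others, with a median of 1.00 for MT2B in QKO.

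Family values were therefore computed again without copies that had an Alu copy in the bin, a choice made after seeing the data. Copies that share only part of their bins with an Alu copy stayed in. In naive QKO the change of MT2B became 0.34 (adjusted p = 1.01e-11) and that of MT2B2 0.32 (8.72e-11), which is well under the full 0.86 and 0.85. In naive LBRKO they became 0.09 (adjusted p = 0.000243) and 0.13 (2.88e-05), and in naive TKO 0.15 (9.06e-06) and 0.17 (7.03e-06). In LBRKO EpiLCs neither passed (0.01 and 0.02, adjusted p = 0.761 and 0.444), and in QKO EpiLCs both did (0.10 and 0.07, adjusted p = 0.000363 and 0.00941). From copies alone in their bin, MT2B changed by 0.40 in naive QKO and MT2B2 by 0.24. MT2_Mm without such copies changed by -0.07 in naive QKO and -0.14 in naive LBRKO, close to its full values of -0.06 and -0.13. These family values are means over copies, which a few high copies can raise, and the median over copies in the preceding account is lower.

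Single copies were tested after the lowest 10% of all copies by mean LAP2B signal was left out, which kept 37098 of the 41671 members. In naive QKO 15461 of them passed (8939 higher, 6522 lower), or 41.7%, against 44.3% of all copies. The share was 21.1% in naive LBRKO (4811 higher, 3020 lower) against 22.5%, and 7.78% in naive TKO (2019 higher, 868 lower) against 8.01%. In EpiLCs it was 1.81% against 2.14% in LBRKO, 0.0755% against 0.0612% in TKO and 1.42% against 1.49% in QKO. With 1 library left out, the EpiLC counts moved from 670 to between 228 and 633 in LBRKO, from 28 to between 12 and 129 in TKO, and from 527 to between 84 and 594 in QKO. The naive TKO count fell from 2887 to as low as 1193. Member copies as a whole were thus called about as often as any copy. Divided by the mean copy, the naive QKO calls among members were 7600 higher and 8688 lower, so which direction prevails depends on the scaling. All copies turned in the same way, to 20.8% higher and 26.2% lower.

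Called copies of the families were divided differently between the directions. Of all tested copies 24.2% were called higher and 20.1% lower in naive QKO. There 3662 MT2B copies were higher and 966 lower of 8863 tested, and MT2B2 had 1296 higher and 395 lower of 3432, or 41.3% and 37.8% higher. The balance was opposite for MT2_Mm, with 191 higher and 333 lower of 2526, and for MERVL-int, with 149 higher and 250 lower of 1954. MT2A had 1382 higher and 1921 lower (16.6% and 23.1%), MERVL_2A-int 601 and 783 (16.9% and 21.99%) and MT2C_Mm 330 and 482 (18.1% and 26.5%). MT2B1, with 1328 higher and 1392 lower (19.99% and 21.0%), was near the shares of all copies.

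The largest rises, among called copies whose QKO and WT libraries did not overlap, were found in a pair of neighbouring copies. MT2B_dup5627 had 224, 236 and 167 reads in naive QKO libraries and 1, 3 and 4 in WT. The QKO libraries lay far above WT, with relative levels of 16.0, 13.1 and 16.7 against 0.0556, 0.250 and 0.333 (5.74 ± 0.435 on the log2 scale, adjusted p = 2.35e-13), and the ratio of the summed reads was 78.4 (exact 95% interval 39.5 to 182, counting error only). It shared its bin with a B1_Mus2 and an ORR1B1-int copy, and reached 2.00 to 4.46 in naive TKO but 0.125 to 0.667 in LBRKO. MT2B_dup5626 had 475, 353 and 316 reads in QKO and 7, 5 and 9 in WT (5.53, adjusted p = 6.16e-17, ratio 54.5, interval 35.5 to 88.3), with 6.80 to 6.92 in TKO. Both copies lay in the table between the last match on the Y chromosome and the first on chromosome 10, so their chromosome was not assigned. The filter on low signal took the mean over all LAP2B libraries, so high mutant libraries can carry a copy past it. Whether these copies would have passed on their WT libraries alone was not tested.

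The largest falls, chosen in the same way, were copies alone in their bins. MT2C_Mm_dup579, on chromosome 5, had 0, 2 and 0 reads in naive QKO libraries and 30, 30 and 25 in WT (-4.07, adjusted p = 9.25e-07), a ratio of 0.0235 (interval 0.00280 to 0.0876). MERVL_2A-int_dup431, on chromosome 2, had 0, 2 and 0 reads against 40, 16 and 22 (-3.86, adjusted p = 7.20e-06, ratio 0.0256, interval 0.00305 to 0.0958). Lack of overlap between the groups was a condition for choosing these copies and the pair above, so it adds no support. Their p-values and intervals are those of picked extremes. In naive TKO the relative level of MERVL_2A-int_dup431 was 0 to 0.267, against 1.33 to 2.22 in WT, and in LBRKO it was 0.905 to 2.38.

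Of the 17 MT2_Mm copies from which the shown sequences were taken, 14 were tested, and 1 was called in each of naive LBRKO, TKO and QKO. The shares called in these mutants were 22.5%, 8.01% and 44.3% of all tested copies. Of tested MT2_Mm copies they were 10.97%, 2.81% and 20.74%. With 14 copies, these counts show no excess of calls. The LBRKO and QKO calls are copies shown above, so the shown copies do not stand for the family. MT2_Mm_dup509 had relative levels of 1.89, 2.25 and 1.83 in naive WT libraries (34, 27 and 22 reads) and 0.857, 0.889 and 1.20 in naive QKO (12, 16 and 12 reads). Every QKO library lay below every WT library (-0.96, adjusted p = 0.0293), and its change in LBRKO did not pass (-0.38, adjusted p = 0.450). MT2_Mm_dup984 had 0.778, 2.17 and 0.750 in WT and 0.286, 0.5 and 0.125 in naive LBRKO (-1.67, adjusted p = 0.0242), with the WT libraries far apart, and its change in QKO did not pass (-1.05, adjusted p = 0.111). The short copy MT2_Mm_dup2597 had 0.944, 1.00 and 1.08 in WT and 1.71, 1.44 and 1.5 in QKO, which did not overlap, yet its change did not pass (0.57, adjusted p = 0.255).

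Placed MT2_Mm copies were also split by position in genes. Of the 1551 placed copies, 189 lay in exons, 636 in introns and 726 between genes. In naive QKO their median changes were 0.05, -0.08 and -0.33, and in naive LBRKO -0.02, -0.02 and -0.30. Naive WT levels of the same copies were 1.36, 1.48 and 1.53. Of all 2643 MT2_Mm copies, 1139 (43.1%) had a MERVL-int copy within 3 rows in the table and so may flank an internal part. Their median level in naive WT was 1.5 ± 0.0833 (SD, n = 3), against 1.39 ± 0.0962 for the others. The negative control IGG gave a like gap, with 1.43 ± 0.0640 against 1.30 ± 0.0660 (SD, n = 3). The median change of copies near MERVL-int was -0.18 against -0.27 for the others in naive QKO, -0.20 against -0.22 in naive LBRKO and -0.06 against -0.11 in naive TKO. In EpiLCs it was -0.02 against -0.03 in TKO, but the order was opposite in QKO (-0.12 against -0.10) and LBRKO (-0.15 against -0.11).

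The change of MT2B copies varied by chromosome. Over 19 chromosomes with at least 20 tested copies, chromosome 18 being left out, median changes of MT2B copies in naive QKO were above 0 on 19, from 0.005 on chromosome 14 (345 copies) to 1.46 on chromosome 11 (658 copies). MT2B2 was above 0 on 17, from -0.18 on chromosome 3 to 1.47 on chromosome 11. MT2_Mm was above 0 on 2, from -0.44 on X to 0.07 on chromosome 19, and MERVL-int on 1. Chromosome 8, of which TKO cells have an extra copy, had the highest median of MERVL_2A-int in naive TKO (0.24), naive QKO (0.31), QKO EpiLCs (0.24) and naive LBRKO (0.22), but the highest of no other family in these comparisons. For MT2_Mm it had -0.19 in naive TKO, -0.39 in naive QKO and -0.42, the lowest of all, in naive LBRKO. Chromosome 6, gained in some WT cells, had the highest medians of MT2B (0.81) and MT2A (0.24) in naive LBRKO. In QKO EpiLCs it had the lowest median of MT2B (0.01). In naive TKO (0.09) and naive QKO (0.29) its MT2B median was at neither end. On the Y chromosome 58 of 1511 member copies were tested, and no median was taken.

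**Figure D4:**
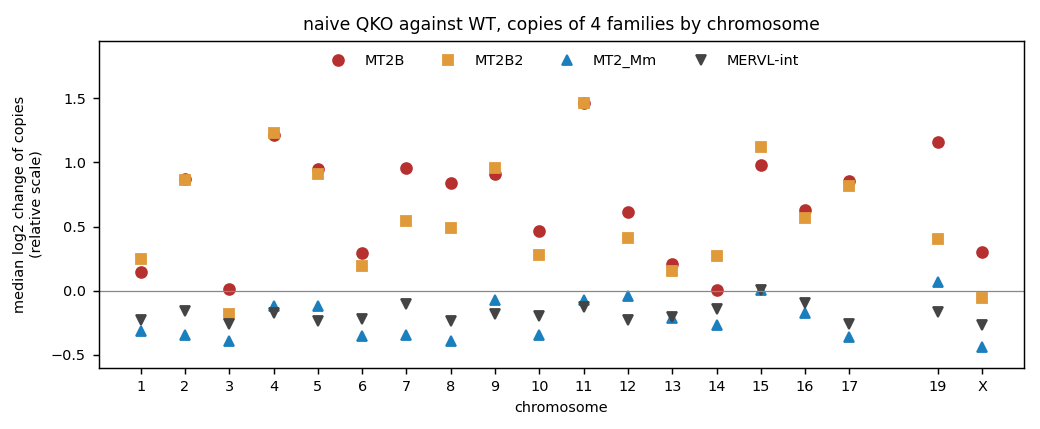
Median change (log2, relative scale) of tested copies of MT2B, MT2B2, MT2_Mm and MERVL-int in naive QKO against WT on each chromosome with at least 20 tested copies, without chromosome 18. MT2B and MT2B2 peak on chromosome 11 at 1.46 and 1.47, while MT2_Mm and MERVL-int stay near or below 0.

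Genes that are transcribed together with MERVL at the 2-cell stage were taken from a list of 35 symbols, of which 33 were in the gene table (Dux and Tcstv1 were not found) and 26 passed the filter on low signal. In naive QKO cells LAP2B fell over 20 of the 26, with no call in the other direction, against 75.4% of all genes called and 42.1% called lower; the median change was -1.28 for the list and -0.21 for all genes. In naive LBRKO cells 19 fell, again with no rise, against 56.4% called and 27.4% called lower (median -1.04 against 0.05). In naive TKO cells 7 of 26 fell, a share near that of all genes (49.3% called and 27.5% called lower; median -0.44 against -0.10). Without naive WT replicate 2 the TKO count was 3. Division by the mean gene, which moves the median of all genes by 0.10 to 0.29 in the naive comparisons, gave 18 falls and 2 rises in QKO, 19 and 1 in LBRKO and 2 and 1 in TKO. On that scaling 24952 of all 70381 genes were called lower and 27052 higher in naive QKO. For all genes the counts were 16631 lower and 23192 higher in LBRKO, and 10339 and 23687 in TKO. These genes belong to clusters of near-identical copies, so values of single genes are uncertain and the genes of a cluster are not independent. The list was chosen with earlier results of these data known, so its counts are no independent test.

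Usp17la, a deubiquitinase gene, and Tdpoz2, of a gene family with TRAF and POZ domains, fell most in naive QKO. Usp17la had relative levels of 3.31, 3.52 and 2.79 in naive WT libraries and 0.633, 0.686 and 0.5 in QKO (-2.23 ± 0.215, adjusted p = 1.94e-13). It stood between them in LBRKO (1.72, 1.59 and 1.33) and TKO (1.45, 1.60 and 1.91), with no overlap with WT or QKO. Tdpoz2 had 1.40, 1.18 and 0.885 in WT, 0.111, 0.381 and 0.147 in QKO (-2.08 ± 0.320, adjusted p = 9.25e-08) and 0.346, 0.410 and 0.169 in LBRKO (-1.65). In TKO its levels of 0.842, 1.35 and 0.821 overlapped WT (-0.20, adjusted p = 0.630).

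In EpiLCs fewer of the genes passed. In LBRKO EpiLCs 9 fell and 1 rose, against 23.3% of all genes called and 10.02% called lower, and without WT replicate 1 only 6 passed. Those that fell were Zfp352, Obox3, Obox5 and 6 genes of the Zscan4 cluster, which codes for zinc finger proteins of the 2-cell stage, while Tcstv3 rose from 0.600, 0.786 and 0.821 in WT to 1.25, 1.43 and 1.19 (0.74, adjusted p = 0.0203). In QKO EpiLCs 6 of 26 fell (36.1% of all genes called and 17.7% called lower), among them Usp17la with 0.739, 0.789 and 0.626 against 2.13, 1.55 and 2.00. That count became 2 after division by the mean gene, 2 without the filter on low values, 3 without WT replicate 2 and 1 without QKO replicate 1. After division by the mean gene 10027 of all 70381 genes were called lower and 16542 higher in QKO EpiLCs, and 5528 and 9435 in TKO EpiLCs. In TKO EpiLCs Zfp352 was the only 1 that passed (18.6% called, 9.92% called lower; -0.75, adjusted p = 0.0400), and no gene passed after division by the mean gene or without TKO replicate 2 or WT replicate 1 or 3.

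**Figure D5:**
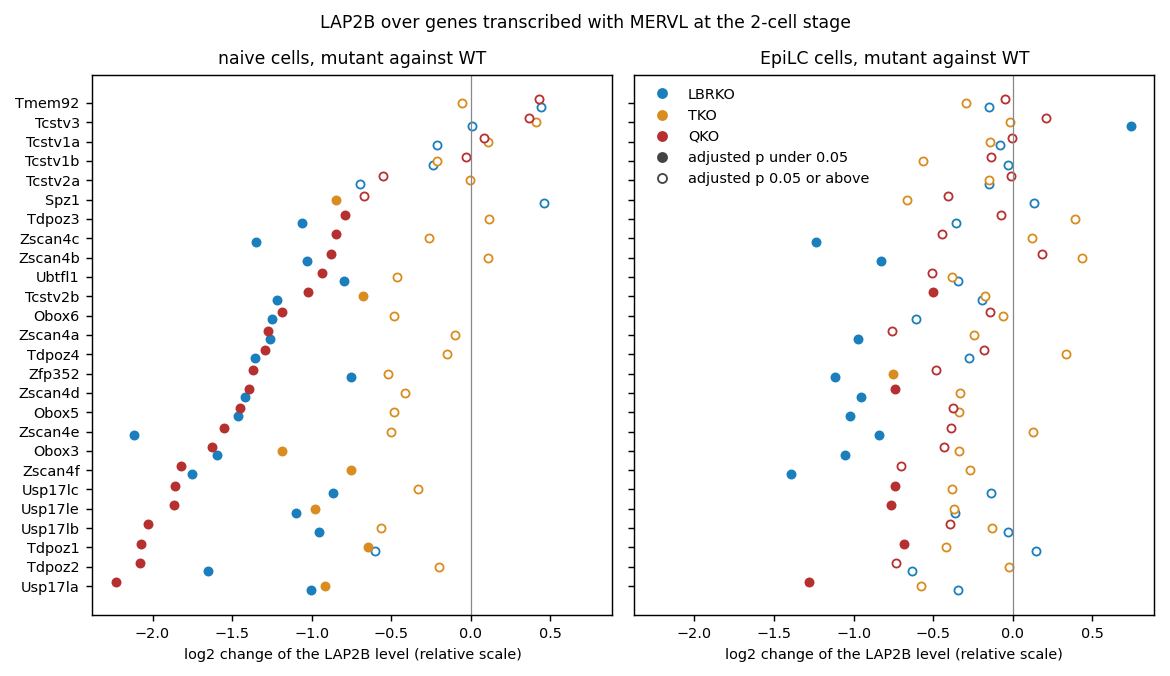
Change of the LAP2B level (log2, relative scale) over the 26 tested genes of the 2-cell list in naive cells (left) and EpiLCs (right) for LBRKO, TKO and QKO against WT, with filled dots for adjusted p under 0.05. In naive cells all filled dots lie left of 0: 20 genes in QKO, 19 in LBRKO and 7 in TKO.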

How the data were processed

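CUT&RUN libraries were sequenced by the authors, aligned with Bowtie2 2.3.5.1 to mm39, and kept as properly paired primary alignments without duplicates. The deposited signal is RPKM in bins from deepTools times a yeast (sacCer3) spike-in factor. The methods name 10 kb bins for transposons, but the values behave as 1 kb bins. The deposited modified z score was copied as it is. The deposited values were whole reads (within 0.05 of a read) for at least 99.9997% of entries, with the totals given above. H3K9me3 libraries were not analysed here.

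The 36 libraries were grouped by antibody, stage and genotype. Two-sided tests used limma 3.58.1 (R 4.3.3; trend) on log2(value + 0.1 times the table median), with 8 group means over the 24 LAP2B libraries and each antibody fitted alone. Adjusted p under 0.05 counted as called. Fold changes on this scale understate changes of low features. The lowest 10% of copies and genes were left out. Reads of families were also tested with edgeR 4.0.16 (quasi-likelihood, TMM). Sequences were aligned with BLAST+ 2.17.0.

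Members, gene lists and settings were chosen with earlier results of these data known. All 8 families were named, and the 2 copies and 2 listed genes with the largest rise and fall among those called in naive QKO, without overlap for copies (no gene rose). Alternatives were another scaling, pseudocount, filter, summary over copies, samples in the fit, edgeR, the replicate block and leaving out each library. Same-numbered libraries did not pair (correlations of deviations -0.41 to 0.20 over 9 comparisons). The scripts were tested on simulated data.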

Additional observations from a re-analysis of the deposited data

Results flagged for a closer look

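The effect of a mutant differed between stages, by a test of the difference itself (effect in EpiLCs minus effect in naive cells, log2, limma over all 1241 families), for 8 pairs of family and mutant. For QKO these were MT2B (-0.56, adjusted p = 2.01e-07), MT2B2 (-0.56, adjusted p = 2.98e-07) and MT2B1 (-0.14, adjusted p = 4.51e-05). For LBRKO they were MT2B (-0.25, adjusted p = 0.00148) and MT2B2 (-0.22, adjusted p = 0.00699). For TKO they were MT2B (-0.16, adjusted p = 0.0284), MT2B2 (-0.17, adjusted p = 0.0358) and MT2B1 (-0.089, adjusted p = 0.0113). In each case the rise against WT was smaller in EpiLCs or did not pass there. The paper did not rely on LAP2B in EpiLCs as a marker of lamina contact. After division by the mean family the LBRKO and TKO pairs lost their call, with TKO MT2B at 0.0016 and TKO MT2B1 turning to 0.081, and QKO MT2B1 turned to 0.073. With the median over copies they lost it too, and QKO MT2B1 turned to 0.025. Without any of 7 libraries the number of TKO families fell from 3 to 1. All 15 Alu families had a difference in the same direction that passed for QKO (median -0.58) and LBRKO (-0.29). MT2B copies with an Alu copy in the bin had a median change of 1.00 in naive and 0.39 in EpiLC QKO cells, and copies alone -0.01 and 0.0054. Without copies beside an Alu copy, a choice made after seeing the data, the 8 pairs still passed, with MT2B at -0.24 in QKO, -0.086 in LBRKO and -0.085 in TKO. Groups held 3 libraries, too few for a test of single outlying libraries.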

How the results depend on the processing

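Each limma result was recomputed with 1 choice changed. With the replicate block, used although the libraries share only a number (all 3 numbers correlated best with their own in 1 of 9 comparisons), naive QKO kept 5 called families, MT2B stayed at 0.86 (adjusted p = 3.38e-12), and no other call changed side.

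Dividing by the mean family reversed the most values, and the cause was not tested. In naive LBRKO, MERVL-int turned to 0.0073, MERVL_2A-int to 0.037, MT2C_Mm to 0.096 and MT2_Mm to 0.013. In naive TKO, MERVL-int turned to -0.18, MERVL_2A-int to -0.19 and MT2B1 to -0.20, and in naive QKO MT2B1 to -0.033 and MT2C_Mm to -0.14. In LBRKO EpiLCs, MERVL-int turned to 0.069, MERVL_2A-int to 0.13, MT2A to 0.19, MT2C_Mm to 0.18 and MT2_Mm to 0.11. Between stages, WT MT2B turned to -0.21, the TKO differences of MT2B1 to 0.081 and of MT2B to 0.0016, and the QKO difference of MT2B1 to 0.073. Called families became 2 in naive LBRKO, 6 in naive TKO (all lower, against 5 higher), 2 in LBRKO EpiLCs, 0 in TKO EpiLCs, 8 (all lower) for LAP2B and 7 (all lower) for LMNB1 between stages in WT, and 0 for the LBRKO and TKO stage differences. Called 2-cell genes became 3 in naive TKO, 0 in TKO EpiLCs and 2 in QKO EpiLCs, and the counts of all genes on that scaling stand with the gene results above.

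The median over copies gave 2, 2 and 2 called families in naive LBRKO, TKO and QKO, 1 and 0 in LBRKO and TKO EpiLCs, and 0 between WT stages and for the LBRKO and TKO stage differences. Except for the LBRKO stage difference above, shares of all families, copies or genes called under this and the settings below are not given. These counts therefore cannot be read as results about the members. It turned MT2C_Mm (-0.078) and MT2_Mm (0.022) in naive QKO and the QKO stage difference of MT2B1 (0.025). Fitting the compared groups alone gave 3 families in naive TKO, 3 in naive QKO and 0 between WT stages, and 2 and 10 2-cell genes in TKO and QKO EpiLCs. A pseudocount of 1 times the median gave 1 family for the TKO stage difference, 1080, 59 and 966 copies in LBRKO, TKO and QKO EpiLCs, and 12 and 2 2-cell genes in naive and EpiLC TKO. Without the filter on low values, 46 copies passed in TKO EpiLCs, 4 2-cell genes in naive TKO and 2 in QKO EpiLCs.

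Settings chosen after seeing the data gave 1 family in TKO EpiLCs and 1 between WT stages without copies beside an Alu copy, and 0 and 0 from copies alone. MT2C_Mm in naive QKO turned to -0.046 and -0.031 under these, and MT2B2 in LBRKO EpiLCs to -0.0012 from copies alone.

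Leaving out each library in turn, called families ranged from 6 to 7 (naive LBRKO), 4 to 6 (naive TKO), 3 to 6 (naive QKO, lowest without WT replicate 3), 6 to 8, 2 to 2 and 2 to 3 (LBRKO, TKO and QKO EpiLCs), 0 to 3 (WT stages, 1 without naive WT replicate 1, 0 without EpiLC WT replicate 2 or 3 or naive WT replicate 2), 0 to 8 (TKO EpiLCs, spike-in scale), 1 to 3 (TKO stage difference, 1 without any of 7 libraries) and 3 to 4 (QKO stage difference). Copies ranged from 4401 to 6453 in naive LBRKO, 1193 to 2510 in naive TKO (both lowest without WT replicate 2) and 12089 to 14345 in naive QKO. In EpiLCs they ranged from 228 to 633 for LBRKO, 12 to 129 for TKO (highest without WT replicate 2) and 84 to 594 for QKO (lowest without QKO replicate 1). Genes of the 2-cell list ranged from 18 to 20, 3 to 7 and 20 to 23 in naive LBRKO, TKO and QKO, and from 6 to 10, 0 to 1 and 1 to 4 in EpiLCs.

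Of 702 recomputed values of single families, copies and genes, 587 kept their direction and call, 91 lost the call and 24 turned. The median copy had 8 to 29 reads, which limits the precision of single copies.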
